A study of Mus musculus with 32 samples.

Results

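The 33 genes described here encode the enzymes that build cholesterol and fatty acids from acetyl-CoA, together with the SREBP transcription factors that control them and their regulators. They were picked by gene symbol from the 56415 genes of the deposited count table. No measured value entered the rule, but earlier results of these data were known when the list was made. All 33 passed the filter on low counts in both tissues. Expression was measured by polyA RNA sequencing of the dorsal hippocampus and the cerebellar vermis of 16 C57BL/6J mice, so that every mouse gave 1 library of each tissue and there were 32 libraries. The mice fell into 4 groups of 4, each with 2 females and 2 males: KO mice with chronic prenatal exposure to ethanol (KO cPAE), KO mice with prenatal saline (KO cPSE), wild-type mice with prenatal ethanol (WT cPAE) and wild-type mice with prenatal saline (WT cPSE). KO mice are knockouts of Acss2, which encodes the cytosolic and nuclear enzyme that makes acetyl-CoA from acetate, a product of ethanol breakdown. The labels name the genotype as KO with no further description of the allele, and they give no litter. Dams of all groups spent 5 nights with a stud and received 1 intraperitoneal injection a day until birth, of 3 g per kg ethanol in a 20% by volume solution or of the same volume of saline. Offspring were weaned at postnatal day 21, caged with mice of the same genotype, sex and exposure, and killed at day 40 to 50, so no mouse received ethanol itself after birth. Mice are named here by group and label, such as KO cPAE F1, a female.

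Acss2 checked the genotype labels. Its level averaged 12.0 ± 1.00 CPM (read counts scaled to library size) in KO hippocampus and 55.7 ± 4.19 CPM in WT hippocampus (SD, n = 8 each), and 16.7 ± 3.45 CPM in KO vermis against 61.5 ± 4.76 CPM in WT vermis. No KO library overlapped a WT library in either tissue (exact two-sided permutation test, p = 0.000155 in each, the smallest that 12870 splits of 8 against 8 give). Acss2 reads remained in KO, with a count of at least 467 in every KO library. Total counts were 54092519 to 96664509 in hippocampus and 23085928 to 73803508 in vermis, with KO cPAE F3 the shallowest vermis library. Markers fitted the labelled tissues: 10 Purkinje cell markers had a mean log2 CPM of 7.43 to 9.10 in vermis and 3.05 to 5.53 in hippocampus, and 10 markers of hippocampal excitatory neurons had 1.59 to 2.68 in vermis and 5.92 to 6.72 in hippocampus. Choroid plexus markers varied widely among hippocampal libraries, with a mean log2 CPM of -0.67 to 5.55.

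Mouse KO cPAE F1 stood apart before any comparison. In its vermis library the summed level of 17 oligodendrocyte and myelin markers was 14900 CPM, against 4714 to 7636 CPM in the other 15 libraries. Its 10 Purkinje cell markers summed to 3068 CPM, against 6129 to 10190 CPM in the others, and its 10 granule neuron markers to 1998 CPM, against 3628 to 7432 CPM. Its 11 microglial markers summed to 249.8 CPM, against 97.1 to 173.0 CPM. In its hippocampus the myelin markers summed to 18170 CPM, against 6031 to 13220 CPM. The library thus had the highest oligodendrocyte and microglial markers and the lowest Purkinje and granule neuron markers of all vermis libraries. For comparisons that include KO cPAE mice, values without it are also given. In pieces of tissue such as these, fewer cells of a type and less RNA per cell cannot be told apart.

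As background, cholesterol is made from acetyl-CoA through mevalonate, farnesyl diphosphate, squalene and lanosterol, and fatty acids are made from acetyl-CoA through malonyl-CoA. Both routes are switched on by SREBP proteins, which SCAP carries from the endoplasmic reticulum to the Golgi for cleavage when membrane sterol is low and which INSIG proteins hold back when it is high; SREBP-2 acts mainly on sterol genes and SREBP-1c mainly on fatty acid genes. The brain makes its own cholesterol, because lipoproteins do not cross the blood-brain barrier, and myelinating oligodendrocytes are among its largest users of both products.

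SREBP proteins bind sterol regulatory elements in promoters together with NF-Y, which binds CCAAT, and Sp1, which binds GC boxes. RefSeq promoters on mouse build GRCm38.p6, from 250 bases before to 50 bases after the start, were matched for 26 of the 33 genes. Of these 26, 21 held CCAAT on either strand (80.8%), against 41.1% of 27025 genes with a promoter in the table and 42.2% of the 13991 of those that were tested for expression. The GC box GGGCGG was also found for 21 of 26 (80.8%), against 38.2% of all genes and 61.5% of those tested. The E-box CACGTG was found for 5 of 26 (19.2%), against 8.09% and 10.6%. The sterol regulatory element TCACNCCAC was found in 1 promoter, that of Hmgcs1, where it starts at base -137 on the gene's strand (3.8%, against 1.44% and 1.47%). Each motif was counted separately, on both strands and without regard to overlap with another motif, and a match is a string of letters, not a shown binding site. The promoters of Hmgcs1, Msmo1 and Ebp are printed because these genes differ most between the tissues among those with a promoter in the table, and those of Pmvk and Insig1 because their genotype difference differed between tissues. Capitals mark CCAAT, its reverse complement ATTGG, and the sterol regulatory element. Each is written 5′ to 3′ on the gene's strand.
Hmgcs1, chr13:119690101-119690400, plus strand: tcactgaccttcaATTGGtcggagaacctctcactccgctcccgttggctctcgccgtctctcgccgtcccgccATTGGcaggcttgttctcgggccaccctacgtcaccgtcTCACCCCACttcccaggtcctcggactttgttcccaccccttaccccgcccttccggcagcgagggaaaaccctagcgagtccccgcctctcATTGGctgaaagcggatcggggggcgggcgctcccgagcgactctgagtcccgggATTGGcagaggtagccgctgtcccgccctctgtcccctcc
Msmo1, chr8:64733529-64733828, minus strand: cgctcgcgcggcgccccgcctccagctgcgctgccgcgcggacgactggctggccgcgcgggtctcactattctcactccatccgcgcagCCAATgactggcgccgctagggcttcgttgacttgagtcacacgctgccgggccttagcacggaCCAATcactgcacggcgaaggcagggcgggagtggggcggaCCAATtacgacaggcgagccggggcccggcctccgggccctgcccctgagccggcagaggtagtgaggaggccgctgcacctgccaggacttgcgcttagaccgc
Ebp, chrX:8193463-8193762, minus strand: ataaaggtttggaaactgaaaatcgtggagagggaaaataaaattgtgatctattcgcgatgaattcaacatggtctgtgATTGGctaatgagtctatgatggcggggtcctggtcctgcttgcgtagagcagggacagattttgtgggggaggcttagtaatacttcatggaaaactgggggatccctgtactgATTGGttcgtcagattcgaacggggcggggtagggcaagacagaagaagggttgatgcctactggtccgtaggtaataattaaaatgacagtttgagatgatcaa
Pmvk, chr3:89454291-89454590, plus strand, the upstream of its 2 listed starts: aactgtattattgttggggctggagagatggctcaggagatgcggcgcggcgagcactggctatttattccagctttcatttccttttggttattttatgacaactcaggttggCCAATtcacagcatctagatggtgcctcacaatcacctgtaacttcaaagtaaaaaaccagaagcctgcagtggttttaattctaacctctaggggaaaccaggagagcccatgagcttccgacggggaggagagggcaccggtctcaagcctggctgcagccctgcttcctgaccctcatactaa
Insig1, chr5:28071162-28071461, plus strand: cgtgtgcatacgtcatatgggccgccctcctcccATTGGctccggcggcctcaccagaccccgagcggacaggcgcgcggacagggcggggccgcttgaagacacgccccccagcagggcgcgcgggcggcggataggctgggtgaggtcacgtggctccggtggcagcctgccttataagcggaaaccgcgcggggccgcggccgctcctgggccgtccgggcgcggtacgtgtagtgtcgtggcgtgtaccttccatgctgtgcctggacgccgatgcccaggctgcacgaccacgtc
The number of CCAAT matches was 4 in Hmgcs1, 3 in Msmo1, 2 in Ebp and 1 each in Pmvk and Insig1. Insig1 also held 1 CACGTG.

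All 33 genes were well above the detection limit, since the lowest count of any of them in any library was 145, for Acacb in a vermis library. Per kilobase of exon, the scale on which levels of different genes are set side by side, Scd2 was by far the most abundant, at 273.4 CPM per kb in vermis, with a coefficient of variation of 14.6%, and 249.9 ± 30.3 CPM per kb in hippocampus (SD, n = 16 libraries over all groups). Scd2 encodes the stearoyl-CoA desaturase that predominates in brain. In vermis it was followed by Scd1 at 45.9 ± 12.5 CPM per kb, its paralog, and by Hmgcs1 at 39.4 ± 8.74 CPM per kb, which makes the precursor of mevalonate. The fatty acid desaturase Fads1 and the acyl-CoA synthetase Acsl3 came next in vermis, at 37.7 ± 3.45 and 33.0 ± 5.70 CPM per kb. In hippocampus the order after Scd2 was Hmgcs1 at 65.2 ± 6.32, Acsl3 at 49.5 ± 3.78, Fads1 at 41.2 ± 2.43, Fads2 at 39.5 ± 3.53 and Scd1 at 38.1 ± 5.33 CPM per kb, and the last 3 of these differ by less than the SD of Scd1. Acacb, the mitochondrial-membrane form of acetyl-CoA carboxylase, was lowest in both tissues, at 0.79 ± 0.0954 CPM per kb in vermis and 0.75 ± 0.185 CPM per kb in hippocampus. Its cytosolic paralog Acaca, which makes the malonyl-CoA used for synthesis, stood at 5.37 ± 0.427 and 5.67 ± 0.425 CPM per kb.

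The first comparison was between tissues, in which each mouse served as its own reference. Of the 33 genes, 25 differed between vermis and hippocampus (75.8%), 20 lower and 5 higher in vermis, by edgeR's quasi-likelihood test with a Benjamini-Hochberg adjusted p below 0.05 over 24458 genes. Over all genes tested 72.6% differed, 38% lower and 34.6% higher, so the share that differed was near that of genes at large. The median log2 fold change of the 33 genes, vermis over hippocampus, was -0.16, beside -0.0288 over all genes. Enzymes of the squalene and early sterol steps were lower in vermis, and the sterol carrier Stard4 and the sterol isomerase Ebp were higher. CPM in the following 4 paragraphs were scaled over both tissues together.

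Among the regulators, Srebf2, which encodes SREBP-2 (ENSMUSG00000022463; GRCm39 chromosome 15, first listed exon 82031382 to 82031691, plus strand), had 113.7 CPM in the lowest, 127.4 in the median and 158.1 in the highest vermis library, against 185.9, 206.9 and 220.9 CPM in hippocampus. The tissues did not overlap and it was lower in vermis in 16 of 16 mice (log2 fold change -0.69 ± 0.034 SE, adjusted p = 5.96e-12). Srebf1, which encodes SREBP-1, did not pass (0.09 ± 0.051, adjusted p = 0.121). Scap, the carrier of the SREBP proteins, was slightly lower in vermis (-0.15 ± 0.028, adjusted p = 0.000124, 14 of 16 mice). Insig1, which retains SCAP, was higher in vermis (0.23 ± 0.035, adjusted p = 1.1e-05, 13 of 16 mice).

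Of the 7 genes for entry and mevalonate steps, 4 were lower and 1 was higher in vermis. Hmgcs1 (ENSMUSG00000093930; chromosome 13, first listed exon 120151915 to 120152049, plus strand) had 142.3, 167.8 and 311.1 CPM in the lowest, median and highest vermis library, against 249.8, 305.7 and 372.7 CPM in hippocampus. The highest vermis value, that of KO cPAE F1, lay within the hippocampal range, and within mice the gene was lower in vermis in 16 of 16 (-0.81 ± 0.046, adjusted p = 4.02e-11). Acat2, the cytosolic thiolase at the entry (-0.31), Idi1, which isomerises isopentenyl diphosphate (-0.25), and Fdps, which makes farnesyl diphosphate (-0.34), were also lower. Pmvk, phosphomevalonate kinase, was higher (0.15 ± 0.035, adjusted p = 0.000715, 12 of 16 mice). Mvk and Mvd, the kinase before it and the decarboxylase after it, had log2 fold changes of -0.03 and 0.05 and did not pass.

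All 3 genes of the squalene and lanosterol steps were lower in vermis. Sqle, squalene epoxidase, had 32.8, 36.7 and 61.0 CPM in the lowest, median and highest vermis library, against 49.6, 58.2 and 67.8 CPM in hippocampus (-0.59 ± 0.047, adjusted p = 3.97e-09, lower in 16 of 16 mice). Fdft1, squalene synthase, had 30.5, 37.4 and 65.1 CPM in vermis, against 48.5, 52.9 and 71.0 CPM in hippocampus (-0.55 ± 0.053, adjusted p = 4.26e-08, 16 of 16 mice). For both genes the ranges met only through the highest vermis value. Lss, lanosterol synthase, fell by less (-0.16 ± 0.036). Reads over 18.3% of the exonic bases of Fdft1 overlap Ctsb on the other strand, and whether the counting used strand is not given in the sources used here.

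Of the 8 genes from lanosterol to cholesterol, 5 were lower and 1 was higher in vermis. Msmo1, the sterol methyl oxidase (ENSMUSG00000031604; chromosome 8, first listed exon 65171173 to 65172215, minus strand), had 31.2, 36.5 and 77.0 CPM in the lowest, median and highest vermis library, against 53.2, 61.2 and 77.8 CPM in hippocampus (-0.70 ± 0.057, adjusted p = 6.54e-09). It was lower in vermis in 16 of 16 mice, with a ratio within a mouse of 0.500 to 0.990. Nsdhl, Hsd17b7, Dhcr7 and Cyp51, which remove methyl groups, reduce intermediates or make the last reduction, had log2 fold changes of -0.48, -0.37, -0.35 and -0.28. Ebp, the isomerase that moves the double bond of the sterol ring (ENSMUSG00000031168; chromosome X, first listed exon 8051568 to 8052072, minus strand), went the other way. It had 14.9, 19.3 and 23.3 CPM in vermis, against 8.68, 10.6 and 12.4 CPM in hippocampus, with no overlap (0.86 ± 0.053, adjusted p = 1.16e-10, higher in 16 of 16 mice). Stard4, a carrier that moves sterol between membranes, had 37.4, 43.9 and 52.5 CPM in vermis, against 18.3, 22.5 and 30.0 CPM in hippocampus, also with no overlap (0.98 ± 0.051, adjusted p = 1.12e-11, 16 of 16 mice). Tm7sf2, a sterol reductase, and Sc5d, the sterol desaturase, had log2 fold changes of -0.01 and 0.00 and did not pass.

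**Figure D1:**
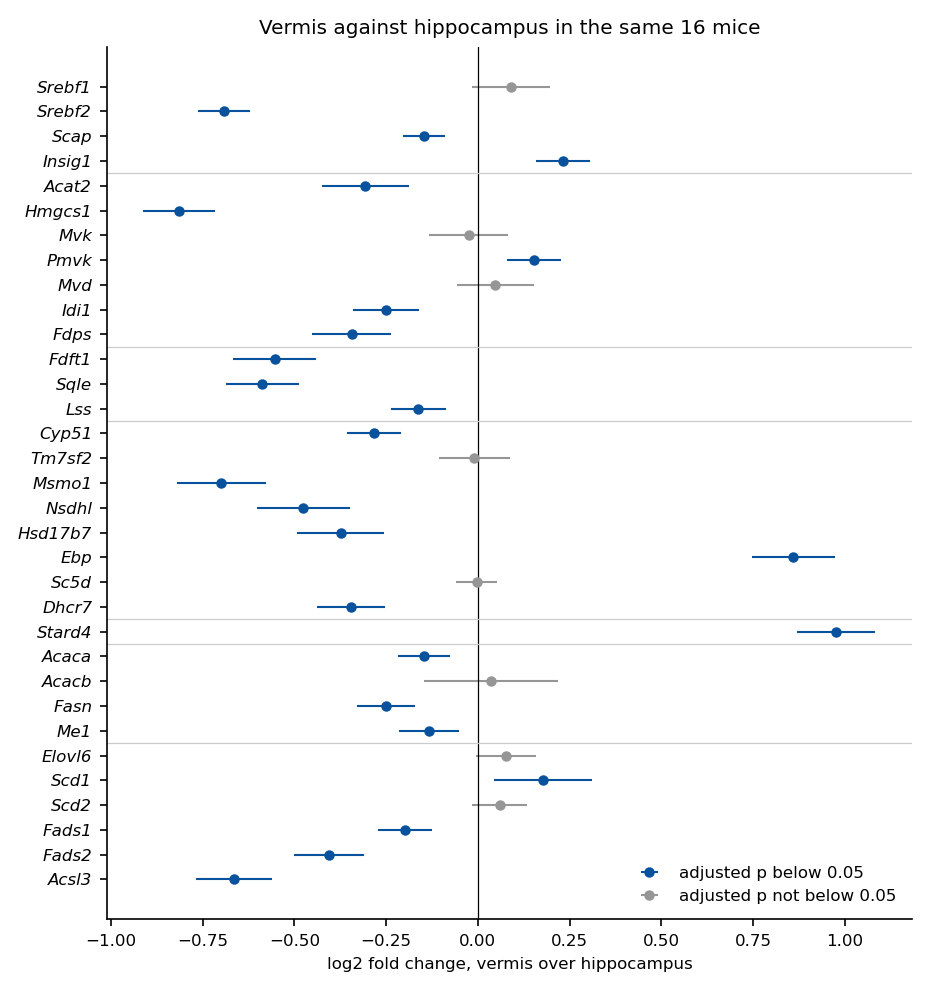
Log2 fold change of each of the 33 genes, vermis over hippocampus, with its 95% confidence interval, from the fit with mouse as a block (16 mice); genes are grouped by role, regulators at the top, and blue marks an adjusted p below 0.05. Stard4 and Ebp lie farthest right, at 0.98 and 0.86, and Hmgcs1 lies farthest left, at -0.81.

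Of the 10 fatty acid genes, 7 differed between tissues, 6 lower and 1 higher in vermis. Fasn, fatty acid synthase, Acaca and Me1, the malic enzyme that supplies NADPH, were lower in vermis by small amounts (-0.25, -0.15 and -0.13). Acsl3, which activates long-chain fatty acids, had 120.7, 135.3 and 217.6 CPM in the lowest, median and highest vermis library, against 203.1, 214.8 and 261.9 CPM in hippocampus (-0.66 ± 0.049, adjusted p = 1.31e-09, 16 of 16 mice). Fads2 and Fads1, desaturases of polyunsaturated fatty acids, were lower as well (-0.41 and -0.20), and Scd1 was higher (0.18 ± 0.063, adjusted p = 0.0187). Scd2, Elovl6, an elongase, and Acacb did not pass. Without mouse KO cPAE F1 the count was 26 of 33, Elovl6 being added, and in that mouse the ratio of vermis to hippocampus was the highest of the 16 for 13 genes and the lowest for 3, Ebp, Elovl6 and Stard4. In WT cPSE mice alone, 18 of 33 differed, 14 lower and 4 higher, beside 54.5% of all genes, 28.8% lower and 25.7% higher.

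Genes around this pathway, none of them among the 33, were spread over both directions between tissues. Over all genes tested, 34.6% were higher and 38% lower in vermis. Of 12 genes for sterol processing and supply, 6 were higher and 4 lower in vermis, such as Erg28, a scaffold of sterol demethylation, at 0.86 and Aacs, which activates acetoacetate, at -0.50. Of 21 further fatty acid genes, 9 were higher and 9 lower, with Elovl2, an elongase of polyunsaturated fatty acids, at 1.37 and Mlxipl, which encodes the carbohydrate-response factor ChREBP, at -1.72. Of 12 genes of sterol efflux and turnover, 4 were higher and 7 lower. Cyp46a1, the neuronal enzyme that turns cholesterol into a form that leaves the brain, had -1.42, and Abcg1, a sterol exporter, had 0.60.

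The second comparison, KO against WT, asked how the Acss2 KO genotype bears on genes that use acetyl-CoA. In vermis of saline-exposed mice, 2 of 33 genes rose in KO and none fell, by edgeR and by DESeq2 alike, beside 4.91% of all genes, 4.63% higher and 0.285% lower. The genes were Pmvk and Ebp. The median log2 fold change of the 33 was 0.02 and 18 were positive, beside a median of -0.0172 and 45.9% positive over all genes.

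Pmvk (ENSMUSG00000027952; chromosome 3, first listed exon 89361848 to 89362046, plus strand) had 25.2, 24.2, 24.8 and 24.9 CPM in the vermis of KO cPSE mice F1, F3, M1 and M3, against 20.5, 19.8, 21.6 and 21.5 CPM in WT cPSE mice of the same labels. Every KO library lay above every WT library (log2 fold change 0.25 ± 0.060 SE, fold 1.187, adjusted p = 0.0247, edgeR). How many of all genes separate in this way was not counted, here or in the other comparisons. Ebp had 21.6, 22.4, 22.4 and 23.9 CPM in KO cPSE mice, against 18.7, 18.1, 17.2 and 15.8 CPM in WT cPSE mice, again with no overlap (0.37 ± 0.098, fold 1.293, adjusted p = 0.0417). Fdps, with the next smallest p, had 0.29 ± 0.121 and did not pass (adjusted p = 0.268), though it passed in 1 of 24 alternatives. The calls of Pmvk and Ebp both sat near the threshold. That of Pmvk was lost without any one of the KO cPSE libraries (adjusted p 0.0726 to 0.12) and without WT cPSE F1, F3 or M3 (0.0652 to 0.168). That of Ebp was lost without any one of the 8 libraries compared (0.0599 to 0.196) and without WT cPAE F1, F3 or M1 or KO cPAE M3, which share the estimate of spread (0.0563 to 0.0599). With an offset for gene length the Pmvk difference was 0.15 and that of Ebp 0.33, with adjusted p of 0.209 and 0.118, and Pmvk was also lost with no filter on low counts (0.115). Without KO cPAE F1 both genes passed (0.0142 and 0.00299), and 0 of 17 myelin markers passed in this comparison, with summed levels of 4714 to 5487 CPM in KO cPSE and 5012 to 6481 CPM in WT cPSE.

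In vermis of ethanol-exposed mice, 3 of 33 genes changed in KO, Pmvk and Srebf1 rising and Stard4 falling, by both tools, beside 7.53% of all genes, 5.74% higher and 1.8% lower. The median log2 fold change of the 33 was 0.08 and 26 were positive, beside 0.0321 and 54.3% over all genes. Pmvk had 27.3, 24.1, 25.9 and 23.5 CPM in KO cPAE mice F1, F3, M1 and M3, against 21.6, 20.9, 19.3 and 20.9 CPM in WT cPAE mice. The groups did not overlap (0.28 ± 0.061, fold 1.218, adjusted p = 0.00853), and the gene still passed when any one of the 16 libraries was left out, without KO cPAE F1 at 0.24 with an adjusted p of 0.0347. It did not pass with the 8 compared libraries alone (0.107) or with the length offset (0.16, adjusted p = 0.0937).

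Srebf1 (ENSMUSG00000020538; chromosome 11, first listed exon 60089915 to 60090977, minus strand) had 67.7, 49.0, 43.4 and 48.8 CPM in KO cPAE vermis, against 41.8, 38.2, 42.2 and 39.5 CPM in WT cPAE vermis. KO cPAE F1 was far the highest, and the other 3 KO libraries still lay above all WT libraries (0.36 ± 0.098, adjusted p = 0.0352). Without that mouse the difference was 0.23 with an adjusted p of 0.076, and with the myelin markers as a covariate it was 0.24 with 0.103. The call was also lost with the 8 compared libraries alone (0.229), without KO cPAE M3, without WT cPAE F1, F3 or M3, without WT cPSE F3, M1 or M3, and without KO cPSE F1, F3 or M1 (adjusted p 0.0557 to 0.142 over these libraries). Stard4 (ENSMUSG00000024378; chromosome 18) had 38.7, 45.2, 44.8 and 39.3 CPM in KO cPAE vermis, against 51.4, 52.0, 53.1 and 47.7 CPM in WT cPAE vermis, with no overlap (-0.28 ± 0.069, adjusted p = 0.0209). KO cPAE F1 was its lowest library, and without it the difference was -0.24 with an adjusted p of 0.0634, and with the myelin covariate it was -0.23 with 0.0584. It was also lost with the 8 compared libraries alone (0.129) and without KO cPAE M3 (0.0618), WT cPAE M1 (0.0836) or WT cPAE F3 (0.0513).

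**Figure D2:**
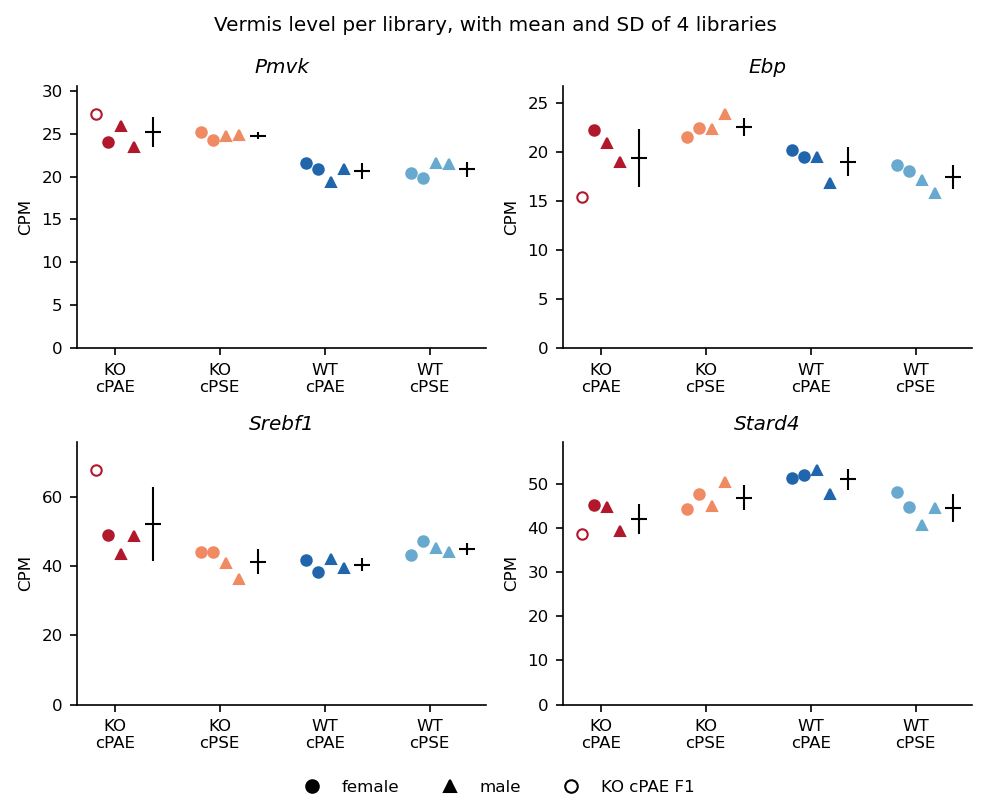
CPM of Pmvk, Ebp, Srebf1 and Stard4 in each vermis library by group, with the mean and SD of 4 libraries; circles are females, triangles males and the open circle is KO cPAE F1. Pmvk averages 25.2 and 24.8 CPM in the KO groups and 20.7 and 20.9 CPM in the WT groups, and the open circle is the highest point for Srebf1 (67.7 CPM) and the lowest for Ebp (15.5 CPM).

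The count in ethanol-exposed vermis turned on single libraries. Without KO cPAE F1 it was 1 of 33, Pmvk, and the median of the 33 was -0.04 with 14 positive, and with the myelin covariate it was 1, Pmvk, with a median of -0.05 and 13 positive. It was 1 without KO cPAE M3 and 1 without WT cPAE F3. Without KO cPAE F3, the shallowest library, it was 11: Acsl3, Fads1, Fads2, Fasn, Fdps, Msmo1, Pmvk, Scd1, Scd2 and Srebf1 higher and Stard4 lower, with a median of 0.14. The share of all genes that passed without each library is not given here for this comparison. For ethanol against saline in KO vermis, leaving out KO cPAE F3 raised the share of all genes that passed from 0.0891% to 2.68%. Myelin and microglial markers leaned 1 way in this comparison. Of the myelin markers, 17 of 17 were positive (median 0.46, 1 passed). Their summed level was 5242 to 14900 CPM in KO cPAE, the highest being KO cPAE F1, and 5167 to 7636 CPM in WT cPAE. Of the microglial markers, 11 of 11 were positive (median 0.59, 3 passed). Summed levels overlapped as well for astrocyte markers (3727 to 3947 CPM in KO cPAE and 3596 to 4093 CPM in WT cPAE). So did those of endothelial markers (243.8 to 326.3 and 218.6 to 290.9 CPM) and of pericyte and smooth muscle markers (188.9 to 246.8 and 195.6 to 267.8 CPM). Of 10 granule neuron markers, 9 were negative (median -0.53, 0 passed). The part of these markers in the differences of Srebf1, Stard4 and the other members was not tested beyond the values without KO cPAE F1 and with the myelin covariate.

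Outside the 33 genes, differences in KO vermis also passed in the surrounding lists (edgeR; SD, n = 4 each). Over all genes, 4.91% passed with saline and 7.53% with ethanol. Of the 21 further fatty acid genes, Hacd1, a dehydratase of the elongation cycle, passed with saline (7.47 ± 0.862 CPM in KO cPSE and 5.53 ± 0.634 CPM in WT cPSE, adjusted p = 0.0189), and was lost without KO cPSE F1, M1 or M3 or WT cPSE F1 or F3 (adjusted p 0.0599 to 0.0896). Hsd17b12, the ketoacyl reductase of that cycle, passed with ethanol (70.7 ± 3.38 CPM in KO cPAE and 55.8 ± 3.44 CPM in WT cPAE, adjusted p = 0.00567). Of the 12 efflux and turnover genes, Npc2, which hands cholesterol out of lysosomes, passed with ethanol (56.4 ± 13.7 CPM in KO cPAE and 39.0 ± 4.03 CPM in WT cPAE, adjusted p = 0.0127). Its KO cPAE values were 76.1 CPM in F1 and 46.6 to 55.8 CPM in the other 3. Without F1 the difference was 0.36 rather than 0.53, with an adjusted p of 0.0131, and the call was lost without WT cPAE F3 (adjusted p = 0.0585) or M1 (adjusted p = 0.0506). Hsd17b12 passed without any one library, without KO cPAE F1 at an adjusted p of 0.0163.

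In hippocampus no gene of the 33 passed for genotype. With saline, 0 of 33 passed by edgeR and 0 by DESeq2, and 0.00427% of all genes passed. At an unadjusted p below 0.05, 3 were higher and 0 lower, beside 8.85% of all genes. The smallest p belonged to Cyp51, lanosterol demethylase (0.21 ± 0.081, adjusted p = 0.453), Mvd (0.35 ± 0.139, adjusted p = 0.474) and Hsd17b7 (0.19 ± 0.079, adjusted p = 0.503). With ethanol, 0 of 33 passed by both tools, and 0.171% of all genes passed. At an unadjusted p below 0.05, 4 were higher and 1 lower, beside 9.92% of all genes. Of the 33, 23 were positive with a median of 0.06, and without KO cPAE F1 17 were positive with a median of 0.00. Me1 was first (0.28 ± 0.084, adjusted p = 0.259), with 67.8, 57.7, 68.1 and 79.6 CPM in KO cPAE mice F1, F3, M1 and M3 and 54.2, 56.5, 56.5 and 57.4 CPM in WT cPAE mice, every KO value above every WT value. Lss (-0.23 ± 0.072, adjusted p = 0.272) and Ebp (0.24 ± 0.089, adjusted p = 0.379) followed. Fasn separated the other way, at 257.4 to 278.5 CPM in KO cPAE and 279.5 to 303 CPM in WT cPAE.

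Whether the KO difference itself differed between the tissues was tested in the fit with mouse as a block. With saline, 1 of 33 passed, Insig1, beside 3.36% of all genes. Insig1 (ENSMUSG00000045294; chromosome 5, first listed exon 28276361 to 28276793, plus strand) had 84.3, 72.3, 74.6 and 64.9 CPM in KO cPSE vermis, against 87.8, 85.3, 81.9 and 79.2 CPM in WT cPSE vermis, and 84.5, 62.0, 61.0 and 63.1 CPM in KO cPSE hippocampus, against 60.6, 57.3, 57.7 and 59.9 CPM in WT cPSE hippocampus. In vermis 3 of the 4 KO values lay below all WT values, and in hippocampus all KO values lay above all WT values. Neither tissue passed alone (-0.18 ± 0.111 in vermis, adjusted p = 0.56, and 0.19 ± 0.111 in hippocampus, adjusted p = 0.665), while the difference between them did (-0.38 ± 0.098, adjusted p = 0.0394, edgeR). Without KO cPSE F1, the mouse with the highest value in both tissues of its group, it was -0.34 with an adjusted p of 0.151. It was also lost without KO cPSE F3 or M3, KO cPAE M3 or any one of the WT cPSE mice (adjusted p 0.0583 to 0.122), and with no filter on low counts (0.0804).

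With ethanol, 1 of 33 passed by edgeR, Pmvk, and 2 by DESeq2, Stard4 being added, beside 2.39% of all genes by edgeR. Pmvk had the vermis values given above and, in hippocampus, 20.4, 19.2, 17.7 and 18.8 CPM in KO cPAE mice F1, F3, M1 and M3, against 19.1, 20.3, 21.1 and 22.1 CPM in WT cPAE mice. Its KO difference was 0.28 in vermis and -0.12 ± 0.088 in hippocampus, where the groups overlapped, and these differed by 0.38 ± 0.098 (adjusted p = 0.0477). The call held without WT cPAE F1, KO cPSE F1 or KO cPAE F3 and was lost without any other single mouse (adjusted p 0.0517 to 0.186, of which 0.186 without KO cPAE F1). It was lost with RLE scaling (0.0681) and with no filter on low counts (0.0863). Stard4 had -0.47 ± 0.142 (adjusted p = 0.107 by edgeR), and without KO cPAE F1 -0.38 (adjusted p = 0.25). Elovl2 was the 1 of the surrounding genes that passed (-0.44, adjusted p = 0.0384), and without KO cPAE F1 it had -0.37 with an adjusted p of 0.116 (other mice were not left out for this gene).

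The third comparison, prenatal ethanol against saline, asked whether exposure left a lasting mark on these genes. No gene of the 33 passed in either genotype or tissue, by edgeR or by DESeq2. In WT hippocampus, 2 genes were higher at an unadjusted p below 0.05, none was lower, and 0% of all genes passed, with 2457 of 23394 at an unadjusted p below 0.05. Of the 33, 29 were positive, with a median of 0.08, beside 52.2% positive and a median of 0.0087 over all genes. The median deviation of the 33 from their tissue medians was -0.0515 in WT cPAE F1, within the -0.0987 to -0.0315 of the WT cPSE libraries. It was 0.0062 to 0.1037 in the other WT cPAE libraries. Oligodendrocyte precursor markers summed to 682.3 to 702.9 CPM in WT cPAE and 534.8 to 623.6 CPM in WT cPSE. Myelin markers summed to 10250 to 13220 CPM and 7923 to 12020 CPM, which overlap. The part of the precursor markers was not tested. The smallest p belonged to Lss, with 43.3, 46.8, 40.8 and 39.5 CPM in WT cPAE mice F1, F3, M1 and M3 and 39.5, 36.7, 36.9 and 33.9 CPM in WT cPSE mice. The groups met only at their edges (0.21 ± 0.072, adjusted p = 0.345). Nsdhl, a sterol dehydrogenase (0.25 ± 0.095, adjusted p = 0.385), and Fasn (0.14, adjusted p = 0.513) came next.

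In KO hippocampus, 4 genes were higher and none lower at an unadjusted p below 0.05, beside 9.31% of all genes, and 0.0513% of all genes passed. Srebf1 came first, with 57.5, 38.2, 39.3 and 45.2 CPM in KO cPAE mice F1, F3, M1 and M3 and 39.9, 30.4, 32.7 and 33.5 CPM in KO cPSE mice. KO cPAE F1 was the highest and the groups overlapped (0.40 ± 0.153, adjusted p = 0.468). Me1 (0.20) and Scd2 (0.24) had adjusted p of 0.486 and 0.496. Of the 33, 26 were positive with a median of 0.08, and without KO cPAE F1 22 were positive with a median of 0.03.

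In WT vermis, 1 gene was higher and none lower at an unadjusted p below 0.05, beside 5.32% of all genes, 0.00446% of all genes passed, and 16 of 33 were positive (median -0.01). The first was Stard4 (0.20 ± 0.069, adjusted p = 0.905), followed by Elovl6 (0.11) and Sc5d (0.09). In KO vermis, 6 genes were higher and 2 lower at an unadjusted p below 0.05, beside 13.3% of all genes, and 0.0891% of all genes passed. Srebf1 had 67.7, 49.0, 43.4 and 48.8 CPM in KO cPAE vermis and 44.0, 44.0, 41.0 and 36.2 CPM in KO cPSE vermis, F1 again being highest and KO cPAE M1 lying within the saline range (0.34 ± 0.098, adjusted p = 0.28). Acsl3 (0.32 ± 0.124) and Scd2 (0.28 ± 0.111) had adjusted p of 0.351 and 0.361. Of the 33, 25 were positive with a median of 0.08, and without KO cPAE F1 14 were positive with a median of -0.02. In that comparison 17 of 17 myelin markers were positive (median 0.57, 0 passed, 9 at an unadjusted p below 0.05). With these markers as a covariate and all libraries kept, 11 of the 33 genes were positive with a median of -0.05.

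**Figure D3:**
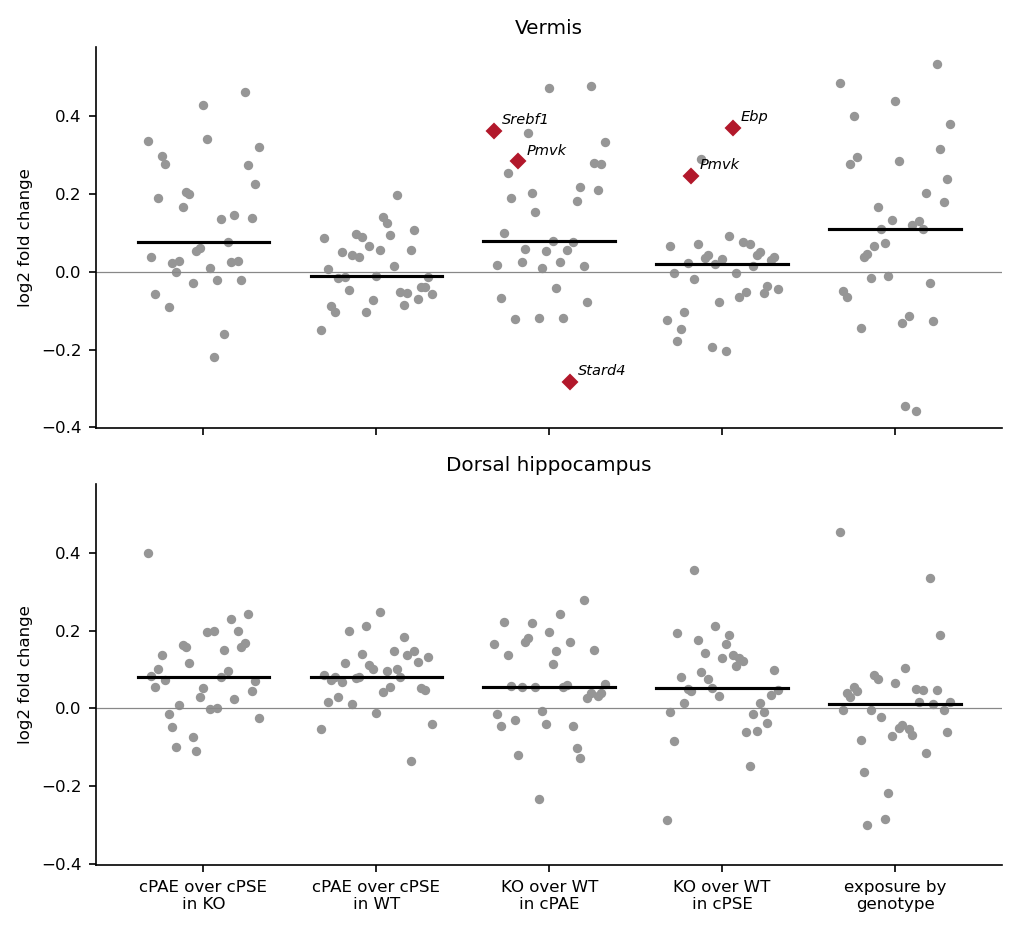
Log2 fold change of each of the 33 genes in the 5 comparisons within vermis (top) and hippocampus (bottom); bars are medians, red diamonds genes with an adjusted p below 0.05 and grey points the others. The 5 red diamonds lie in the KO over WT comparisons in vermis, and the bars lie between -0.01 and 0.11.

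The exposure effect did not pass as different between the genotypes for any gene of the 33 in either tissue, by edgeR or DESeq2. In vermis 2 genes were positive and 2 negative at an unadjusted p below 0.05, beside 11.2% of all genes, and 0.107% of all genes passed. Of the 33, 22 were positive with a median of 0.11, and without KO cPAE F1 16 were positive with a median of -0.01. Stard4 (-0.36 ± 0.098, adjusted p = 0.233), Srebf1 (0.49 ± 0.139, adjusted p = 0.267) and Ebp (-0.34 ± 0.140, adjusted p = 0.4) had the smallest p, and without that mouse their values were -0.31, 0.35 and -0.24. In hippocampus 1 was positive and 1 negative at an unadjusted p below 0.05, beside 9.94% of all genes, and 0.175% of all genes passed, with Me1 at 0.33 ± 0.119 (adjusted p = 0.348), Lss at -0.28 ± 0.101 (0.351) and Srebf1 at 0.45 ± 0.216 (0.52). There 17 were positive with a median of 0.01, and without KO cPAE F1 10 were positive with a median of -0.03. Set between vermis and hippocampus, the exposure effect differed for none of the 33 in WT (0% of all genes, 1 of the 33 lower at an unadjusted p below 0.05, Lss, -0.32, adjusted p = 0.972) or in KO (0.00409% of all genes, 1 higher and 2 lower, Acsl3 at 0.31 and Ebp and Stard4 at -0.44 and -0.32, adjusted p = 0.82), with 0 by DESeq2 in both. All genes at an unadjusted p below 0.05 made up 4.98% in WT and 6.03% in KO. In KO 19 of the 33 were positive with a median of 0.03, and without KO cPAE F1 13 were positive with a median of -0.06. The comparisons of this and the preceding paragraphs share groups and are not independent of one another.

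Females and males were compared over the 4 groups. In vermis 0 of 33 passed by both tools, 3 were higher in females and none lower at an unadjusted p below 0.05, beside 3.16% of all genes, and 0.0535% of all genes passed. Of the 33, 30 were positive, with a median of 0.09, beside 51.1% and 0.0024 over all genes. Hsd17b7 had 0.25 ± 0.106, Insig1 0.19 ± 0.079 and Mvk 0.14 ± 0.061, each with an adjusted p of 1. Mouse KO cPAE F1 is a female, and without it 22 of 33 were positive with a median of 0.04. In hippocampus 0 of 33 passed by both tools, 3 were higher and 1 lower at an unadjusted p below 0.05, beside 7.65% of all genes, and 0.0769% of all genes passed. There 21 were positive with a median of 0.01, and without KO cPAE F1 14 were positive with a median of -0.02. Me1 was lower in females (-0.15 ± 0.059, adjusted p = 0.609) and Lss (0.12) and Acsl3 (0.11) were higher, none of them past the threshold.

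The largest departures of these genes were those of 1 mouse. The vermis library of KO cPAE F1 was above the tissue median for 30 of 33 genes and was the highest of 16 for 23, with a median ratio of 1.436 to the median of the other libraries. Its median deviation from each gene's tissue median was 0.52 on the log2 scale, against -0.07 to 0.08 in the other 15 vermis libraries. In the hippocampus of the same mouse, 32 of 33 genes were above the median and 15 were the highest of 16, with a median deviation of 0.21, against -0.11 to 0.13 in the others. The second highest hippocampal library was KO cPSE F1, at 0.13.

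Genes of nearly every role took part in that vermis library. Msmo1 stood at 79.6 CPM, against 31.6 to 51.6 CPM in the other 15 libraries, and Hmgcs1 at 321.6 CPM, against 146.6 to 193.5 CPM. Scd1 had 413.2 CPM, against 177.0 to 324.1 CPM, and Scd2 had 2251 CPM, against 1323 to 1661 CPM. The first pair belongs to the sterol route and the second to the desaturation of fatty acids. Fdft1 (67.3 CPM against 31.4 to 42.9 CPM), Sqle (63.1 CPM against 33.8 to 44.3 CPM) and Acat2 (47.3 CPM against 23.1 to 33.0 CPM) were likewise beyond all others. Among the regulators, Srebf1, Srebf2 and Insig1 were the highest of 16, while Scap, at 77.9 CPM, lay within the range of 70.0 to 81.6 CPM of the other libraries. Tm7sf2, Sc5d, Mvk, Mvd, Lss, Elovl6 and Acacb also lay within the range of the others. Ebp and Stard4, the genes higher in vermis than in hippocampus by the largest amounts, were the lowest of 16, at 15.5 and 38.7 CPM.

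**Figure D4:**
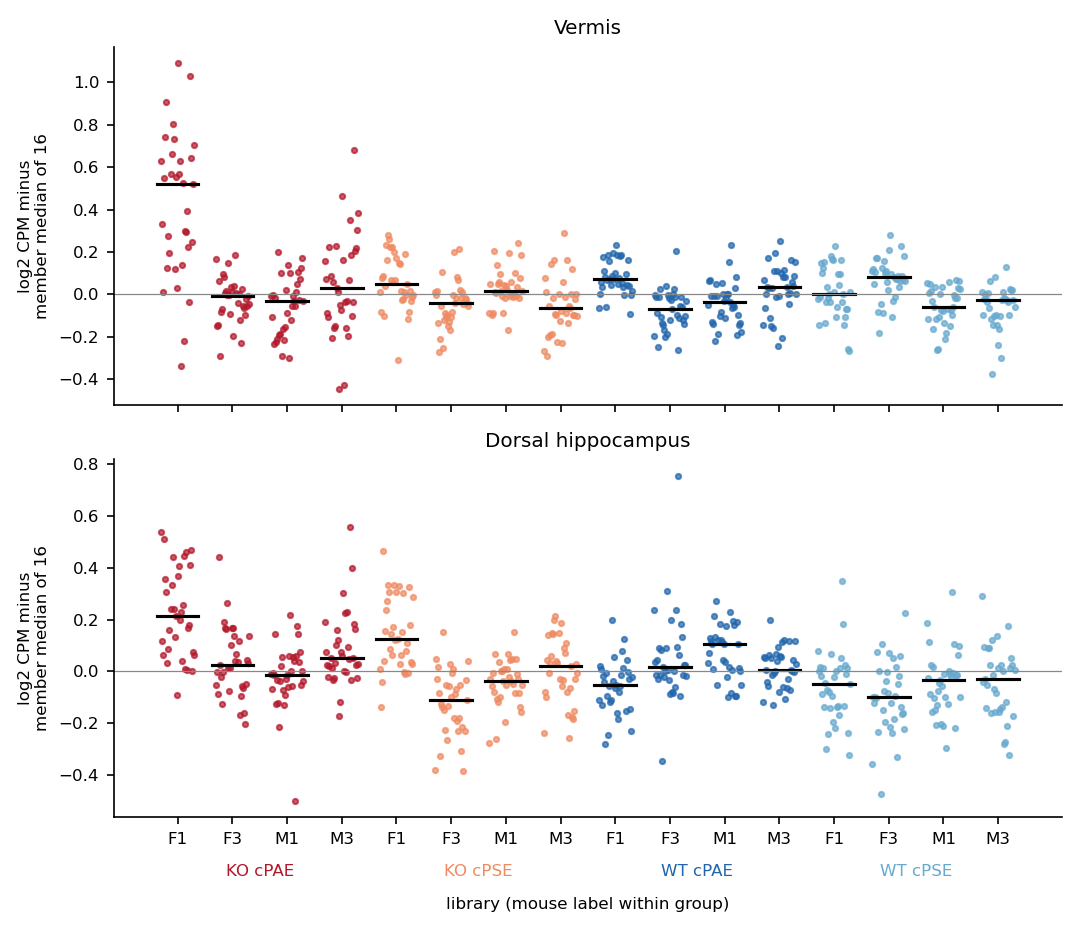
Deviation of each of the 33 genes from its tissue median, in log2 CPM, for every vermis (top) and hippocampal (bottom) library; points are genes and bars medians over the 33. The bar of KO cPAE F1 lies at 0.52 in vermis and 0.21 in hippocampus, and those of the other libraries lie between -0.11 and 0.13.

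The myelin and other glial and neuronal markers of that mouse, given above, departed in the same libraries, and their part in the levels of the 33 genes in single libraries was not tested. The markers of the vermis library were not uniformly shifted. Astrocyte markers summed to 3727 CPM, within the 3596 to 4093 CPM of the other libraries. Endothelial markers (326.3 CPM, against 214.0 to 296.9 CPM) and oligodendrocyte precursor markers (554.0 CPM, against 290.3 to 400.8 CPM) were above all others. In the hippocampus of that mouse, microglial markers were the highest (393.5 CPM, against 285.2 to 361.7 CPM). Excitatory neuron markers there were the lowest (1155 CPM, against 1220 to 1843 CPM), and astrocyte markers lay within the range of the others. The median coefficient of variation of the 33 genes over the 16 vermis libraries was 12.8%, between 4.26% for Scap and 28.2% for Msmo1, and without KO cPAE F1 it was 8.66%, between 4.24% for Me1 and 16.9% for Scd1. In hippocampus it was 9.96%, between 4.88% for Srebf2 and 24.7% for Acacb, and 9.10% without that mouse.

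**Figure D5:**
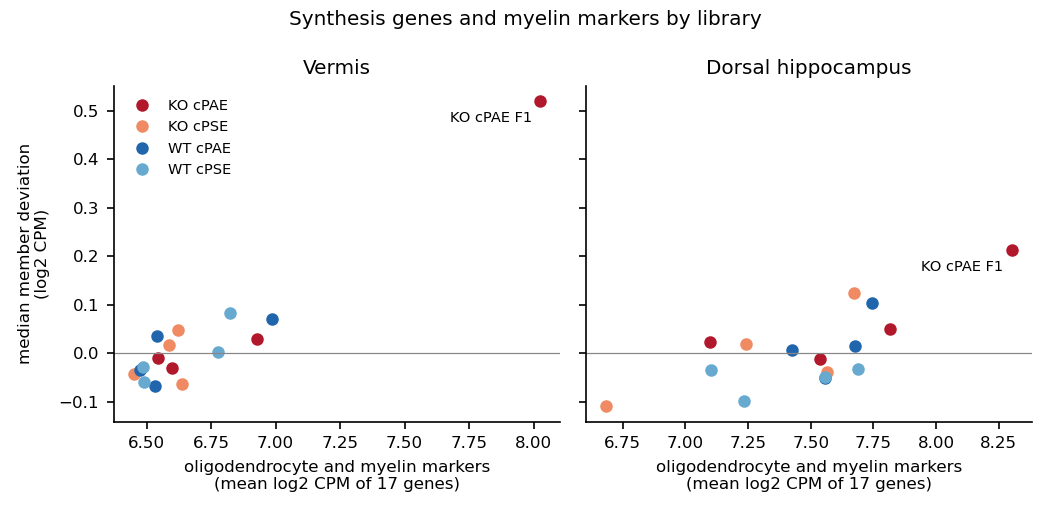
Median deviation of the 33 genes (vertical, log2 CPM) against the mean log2 CPM of 17 oligodendrocyte and myelin markers (horizontal) for each library, vermis left and hippocampus right. KO cPAE F1 is the farthest right and the highest in both, with 8.02 and 0.52 in vermis and 8.30 and 0.21 in hippocampus.

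Some values rest on reads that other genes may share. The exons of Fdps overlap those of Gm43738 on the same strand over 26.7% of their bases in the GENCODE annotation of the older build, and those of Scap, Hmgcs1, Tm7sf2 and Idi1 overlap another gene over 9.22% to 13.2%. Scd1 and Scd2 have close paralogs, Acat2 has the neighbouring paralog Acat3, and Idi1 has a pseudogene, so their counts are uncertain to that extent. No overlap with another gene's exons was found for Pmvk, Ebp, Stard4 or Insig1.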

How the data were processed

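Poly(A) RNA of dorsal hippocampus and cerebellar vermis, from 10 ng of RNA in 1 sequencing batch per the labels, was measured in 32 libraries of 16 mice, which are the replicates. The authors deposited raw counts per gene. The genome was GRCm39 and the tools named were STAR 2.7.10a, featureCounts 2.0.6, cutadapt 5.0, bcl2fastq and DESeq2, per the submitters' processing notes; the strand setting and annotation are not given in the sources used here. In the deposited counts mates were counted separately, since 85.1% to 91.6% of counts from 1 to 20 were even, and shared reads were counted for each gene.

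The tests used edgeR 4.0.16 in R 4.3.3: filterByExpr, TMM scaling and robust quasi-likelihood F-tests, with all 16 libraries of a tissue and sex as a covariate (23394 genes in hippocampus, 22441 in vermis), or with all 32 libraries and mouse as a block, since the labels give both libraries of a mouse 1 identifier (24458 genes). Adjusted p-values are Benjamini-Hochberg over all genes tested, with a threshold of 0.05. CPM are TMM-scaled, and log2 CPM used a prior count of 2. The code was tested on simulated data. Figures used Python 3.11.15 and matplotlib 3.10.9. At 1 CPM a gene has between 23.1 counts (shallowest library) and 96.7 (deepest). No library was a copy of another of its group: over 48 pairs the chi-square per degree of freedom was at least 9.05.

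The 33 genes, the surrounding gene lists and the marker lists were chosen with earlier results of these data known. All 33 are described by role. Genes past the threshold get library values, up to 8 per comparison by smallest p, and where fewer than 3 passed, the 3 with the smallest p are named. Up to 4 genes of each surrounding list are named. Promoters were matched by symbol to RefSeq promoters of GRCm38.p6, whose coordinates are not comparable with those of GRCm39; exon overlaps came from a GENCODE annotation of the same older build. Alternatives were RLE scaling, DESeq2 1.42.0, a replicate block, no sex term, no low-count filter, only the groups compared, a gene length offset, a myelin marker covariate, no mouse block, and each library or mouse left out. Leaving libraries out for the surrounding genes was added after seeing the data. The result of 1 surrounding gene is not reported here. The transcript tables and the tables without gene symbols were not used here.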

Additional observations from a re-analysis of the deposited data

Results flagged for a closer look

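Of 264 combinations of a gene and a group of 4, 15 had 1 library far from the other 3 (a gap to the nearest library of more than 0.829 of the group's range), and chance gives about 1 in 20. In KO cPAE vermis, F1 was far the highest for Cyp51 (84.64 CPM, next 55.8) and Dhcr7 (33.63 CPM, next 22.82), and M3 was the lowest for Tm7sf2 (19.07 CPM, next 20.37). In KO cPAE hippocampus, F1 was the highest for Stard4 (29.71 CPM, next 23.71) and F3 the lowest for Ebp (10.65 CPM, next 12.05). In KO cPSE vermis, M1 was the highest for Fads1 (189.4 CPM, next 177.0) and Scd1 (239.1 CPM, next 195.9). In KO cPSE hippocampus, F1 was the highest for Insig1 (84.53 CPM, next 63.1).

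In WT cPAE mice, the vermis of F1 was the highest for Fdps (29.98 CPM, next 24.11), the hippocampus of M1 was the highest for Acat2 (36.09 CPM, next 33.07), and the hippocampus of F1 was the lowest for Fads1 (183.5 CPM, next 202.4). In WT cPSE vermis, F3 was the highest for Srebf2 (141.3 CPM, next 121.4) and F1 the lowest for Fads1 (150.5 CPM, next 182.6). In WT cPSE hippocampus, M3 was the highest for Fdft1 (51.15 CPM, next 49.0) and F3 the highest for Sc5d (79.6 CPM, next 70.41).

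The median deviation of the 33 genes in KO cPAE vermis was 0.52 in F1, far above the next of its group at 0.03.

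The test of the KO difference between vermis and hippocampus passed for Insig1 with saline (-0.38 on the log2 scale, adjusted p = 0.0394, edgeR). It also passed for Pmvk with ethanol (0.38, adjusted p = 0.0477). These calls sat near the threshold. That of Insig1 was lost in 10 of 20 alternatives and that of Pmvk in 15 of 20. Over all genes, 3.36% passed the same test with saline and 2.39% with ethanol.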

How the results depend on the processing

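No called gene changed sign under any alternative run. The number of the 33 genes past the threshold in KO against WT vermis with saline, 2 in the report, was 1 with no low-count filter, 1 with the replicate label as a block (Ebp lost, adjusted p = 0.0502) and 0 with the length offset, and 0 to 2 with single libraries left out. With ethanol, 3 in the report, it was 0 with only the groups compared, 1 with the myelin covariate and 1 to 11 with single libraries left out. With saline, Fdps, which was not called in the report, passed in 1 of 24 alternatives. Exposure in KO hippocampus and the interaction there each gave 1 (Srebf1) with no low-count filter, against 0, and exposure in KO vermis gave 0 to 1. For exposure in KO hippocampus, 2.38% of all genes passed with no low-count filter, against 0.0513% in the report. In KO vermis the 1 (Acsl3) came without KO cPAE F3, where 2.68% of all genes passed. The difference between tissues of the KO effect with saline, 1 in the report, was 0 with no filter, 0 with no replicate block (mouse) and 0 to 1 with mice left out. With ethanol it was 2 by DESeq2, 0 with RLE scaling, 0 with no filter, 2 with no replicate block and 0 to 1 with mice left out. The median of the 33 genes in the vermis interaction was -0.03 with the myelin covariate, against 0.11. The other 99 of 112 counts under settings that kept all libraries stayed within 1.5 times the reported count. Causes were not tested. Replicate labels were not taken to pair mice, since the labels name no litter and give 1 sequencing batch for all libraries. Not every same-labelled pair correlated over 0.1. Deviations of same-labelled libraries had a median correlation of 0.14 in hippocampus (15 of 24 pairs over 0.1) and 0.24 in vermis (16 of 24), against -0.08 (25 of 72) and -0.10 (26 of 72) for differently labelled ones. Sex was left in these deviations, and same-labelled libraries are always of 1 sex. The gap therefore cannot tell pairing from sex. The block gave 4 of 33 with ethanol in vermis, Fdps being added. The number of mice, 4 a group, and the shallowest library, with 23.1 counts per CPM, limit what could pass.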
